A study of Mus musculus with 18 samples.

Results

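Mitochondrial ribosomal proteins are the nuclear-encoded proteins of the mitoribosome. They were taken as the protein-coding genes of the deposited count table whose mouse symbol starts with Mrpl or Mrps followed by a digit, with 5 pseudogenes left out, and they number 78 of the 55450 genes in the table. By their known places 51 belong to the large subunit and 26 to the small subunit, Mrps30 and Mrps18a being counted with the large one. The last, Mrps36, keeps its ribosomal name but is now assigned to the 2-oxoglutarate dehydrogenase complex.

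The 18 libraries of polyadenylated RNA came from C2C12, a line of mouse myoblasts whose cells fuse into myotubes once serum is lowered. There were 3 lines, each as myoblasts in growth medium and as myotubes on day 3 in medium with horse serum, with 3 libraries (A, B and C) in each of the 6 groups. The control line, px in the labels, was a sorted population that received the pX458 vector without a guide. The line labelled 2-4 is called a Dlk1-Dio3 overexpressor and the line labelled 2-7 a Dlk1-Dio3 knockout; both were grown from single cells after editing with guide pairs against the promoter region of Meg3, the long noncoding RNA of this imprinted cluster. All 3 lines went through transfection with a Cas9 and EGFP vector and sorting for EGFP. Each genotype is 1 line, so genotype and line cannot be told apart, and the labels do not say whether the libraries of a group came from separate cultures, so p-values measure only the spread between these libraries.

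Library totals ran from 41544358 to 79140702 counts. Meg3 had 0 counts in all libraries of the control and of the knockout clone, which allows at most 3 counts a library, and 5222 to 7763 counts in the overexpressor clone. The control and the knockout clone therefore did not differ in detectable Meg3, and this check does not tell those 2 lines apart. Myoblast genes (Myod1, Myf5, Des and Cdh15) were expressed in all 6 groups. Of 7 genes that mark blood, endothelial, fat, epithelial and glial cells, Epcam and Sox10 had 0 counts in every library and none of the others passed 21 counts in any library. Libraries of a group differed from each other by more than counting noise, and library C of the overexpressor myotubes stood farthest from its group, so in each comparison that includes this group the count of members called is also given without it.

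The mitoribosome sits in the mitochondrial matrix and translates the few messenger RNAs of the mitochondrial genome, which encode core subunits of the respiratory chain and the ATP synthase. Its ribosomal RNAs come from the mitochondrial genome, while all of its proteins are encoded in the nucleus, made on cytosolic ribosomes and imported. The small subunit binds and decodes the messenger, the large subunit forms the peptide bond, and many proteins of both have no bacterial counterpart. Fusing muscle cells are known for a rise in mitochondrial content.

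Nuclear respiratory factor 1 (NRF1) and the ETS factor GABP are known regulators of nuclear genes for mitochondrial proteins. Promoters of the members were searched for their letters and for those of YY1. Whether members with a match changed more or less than the others was not tested. RefSeq promoters on GRCm38.p6 were found for 69 members, with 75 promoters in all, and the 250 bases before each start were read on both strands. The NRF1 letters, GCGC, any base and then TGCGC, stood in 10 of the 75 (13.3%), against 7.09% of the promoters of other tested genes and 3.74% of all promoters in the table. The ETS letters CCGGAAG stood in 18 (24%), against 12.1% and 6.91%. The YY1 letters AAGATGGCG stood in 2 (2.67%), against 1.04% and 0.606%. Any of these letters stood in 29 promoters (38.7%), against 18.7% of the promoters of other tested genes. The end of the ETS letters and the start of the YY1 letters can overlap, and a match is a description of the sequence and not a bound site.

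The windows below belong to members described further on, and the capitals mark the matched letters. The first 4 hold the NRF1 letters and the last 4 the ETS letters, which are read on the opposite strand in Mrpl52 and Mrps27.
Mrpl12 (chr11:120484546-120484575, plus strand): tattgtctccGCGCCTGCGCgtcgcaccgc
Mrpl30 (chr1:37890384-37890413, plus strand): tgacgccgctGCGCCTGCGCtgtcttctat
Mrpl32 (chr13:14613105-14613134, minus strand): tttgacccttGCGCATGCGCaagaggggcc
Mrps21 (chr3:95871586-95871615, minus strand): ggaaagtccaGCGCCTGCGCtcagcaccga
Mrps22 (chr9:98601680-98601700, minus strand): acctctcgagCCGGAAGttgc
Mrpl18 (chr17:12916315-12916341, minus strand): actgaaaacgCCGGAAGtagggggctg
Mrpl52 (chr14:54426852-54426878, plus strand): aagatgtcggCTTCCGGttttcccggc
Mrps27 (chr13:99344728-99344754, plus strand): ggtaggaccaCTTCCGGcggaggcggg

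In Mrpl12, Mrpl30, Mrpl32 and Mrps21 the NRF1 letters lie at much the same distance from the RefSeq start, with first bases at -81, -83, -87 and -91. Of the 10 promoters with these letters only those of named members were placed, so no common spacing can be read from them. The Mrpl32 and Mrpl18 windows lie inside the span of the gene in GENCODE, past its annotated start. Of the windows shown, those of Mrpl30, Mrpl32, Mrps21 and Mrpl18 overlap an annotated exon of some gene on either strand. By subunit, 9 of 50 large subunit promoters and 1 of 24 small subunit promoters held the NRF1 letters. The members are spread over 17 chromosomes, with 11 on chromosome 11 and 8 on chromosome 17. In 25 of them the annotated start lies within 500 bases of the start of a protein-coding gene read the other way, and 1 such pair is made of 2 members, Mrps11 and Mrpl46. Such neighbours were not counted for other genes, so this cannot be called a trait of the members.

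Levels are given as CPM, counts brought to a common library size with the trimmed mean of M-values (TMM), and as CPM per kilobase of exon where genes are compared with each other. All 78 members passed the filter on low counts. Over the 18 libraries the median member stood at 41.9 CPM, and 73 members had a mean of at least 10 CPM. Per kilobase the median was 16.3, with 17.6 for large and 12.3 for small subunit members. Mrpl12, the L7/L12 stalk protein that also binds the mitochondrial RNA polymerase, was highest at 86.2 CPM per kilobase. Mrps21 followed at 65.4 CPM per kilobase (99.1 with the length of its longest transcript, beside 100.4 for Mrpl12), and Mrpl23 (0.447) and Mrpl53 (0.153) were lowest. Mrpl53 had 0 to 17 counts a library, and 88% of its exon bases are shared with other genes on the same strand, so its values are uncertain and it is left out of the plots of members, while it stays in the counts.

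The members' summed level was higher in the knockout clone than in control at both stages. In myoblasts the sum was 2876 to 2936 CPM in control, 2661 to 2981 CPM in the overexpressor clone and 3572 to 3633 CPM in the knockout clone. In myotubes it was 3459 to 3688 CPM in control, 3452 to 3702 CPM in the overexpressor clone and 4132 to 4727 CPM in the knockout clone. The knockout libraries lay above all control and overexpressor libraries of their stage, while the ranges of control and overexpressor libraries overlapped. The ratio of knockout to control means was 1.24 in myoblasts and 1.24 in myotubes. As a share of all counts, which uses no TMM scaling, the knockout to control ratios were 1.22 and 1.28. In bulk RNA, fewer cells of a type and less RNA per cell cannot be told apart.

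**Figure D1:**
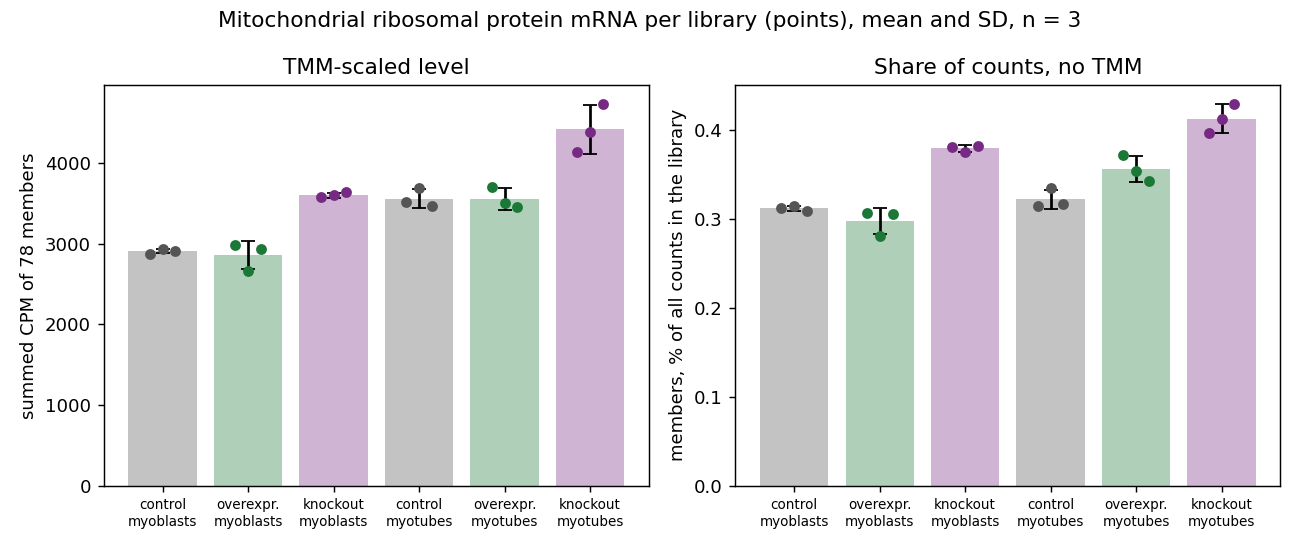
Summed CPM of the 78 members (left) and their percent of all counts (right) in each library; bars are group means, whiskers SD (n = 3) and points libraries. The 3 knockout libraries lie above the control and overexpressor libraries of the same stage in both panels, and control myotubes exceed control myoblasts by 1.22 times in summed CPM but by 1.03 times as a share of counts.

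In knockout myoblasts against control myoblasts 53 of 78 members were called higher and 3 lower (edgeR's quasi-likelihood test, Benjamini-Hochberg adjusted over all 17912 genes tested, threshold 0.05). Of all genes tested, 26.4% were called higher and 26.6% lower. The members' median log2 fold change was 0.36, beside 0.02 for all genes. It stood 0.34 above the all-gene median under each of 3 ways of scaling. Scaling shifts all genes of a comparison by nearly the same amount, so it can hardly change such a gap. In 59 members every knockout library lay above every control library and in 10 below, against 34.6% and 34.2% of all genes. The members called lower were Mrps6, Mrps26 and Mrpl13. With library C of the control or library B of the knockout left out, 1 member was called lower.

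Mrpl47, a large subunit protein related to bacterial L29 (chr3:32725397-32737605), changed most. It had 15.7, 13.4 and 15.3 CPM in control myoblasts and 31.7 CPM in each of the 3 knockout libraries. The groups did not overlap, and the log2 fold change was 1.10 (SE 0.13, edgeR adjusted p = 1.03e-06). Actl6a and Ndufb5 share 24.2% of its exon bases. Mrpl1, the L1 stalk protein (chr5:96209493-96266727), had 12.9, 9.92 and 12.3 CPM in control and 25.8, 25.5 and 22.5 CPM in knockout myoblasts. The knockout libraries were again all higher, by 1.07 on the log2 scale (SE 0.19, edgeR adjusted p = 0.00015).

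Among mitochondrion-specific proteins, Mrpl38 of the large subunit (chr11:116131817-116138868) had 55.1, 55.6 and 58.9 CPM in control and 98.4, 103 and 97.5 CPM in knockout myoblasts. Its log2 fold change was 0.82 (SE 0.09, edgeR adjusted p = 2.78e-07). Mrps23, a small subunit protein (chr11:88204388-88211507), had 45.1, 48.8 and 45.3 CPM in control and 78.1, 79.9 and 80.2 CPM in the knockout, a log2 change of 0.78 (SE 0.08, edgeR adjusted p = 1.64e-07). Neither pair of groups overlapped. Mrps22, whose human counterpart is mutated in a mitochondrial disease of infancy, rose by 0.75 (log2) and Mrpl30 by 0.55. Mrpl12 had 98.7, 112 and 109 CPM in control and 145, 144 and 150 CPM in knockout myoblasts, a log2 change of 0.46 (SE 0.11, edgeR adjusted p = 0.00127). Mrps6, a small subunit protein with a bacterial homologue, went the other way, with 41.4, 42.4 and 42.9 CPM in control and 34.5, 33.5 and 34.1 CPM in the knockout, and fell by 0.31 on the log2 scale (SE 0.08, edgeR adjusted p = 0.00368).

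Genes of differentiated muscle stood far apart in the same knockout myoblasts. The summed CPM of 8 myotube genes (Myog, Myh3, Ckm, Mymk, Mymx, Actn2, Tnnt3 and Tnnc2) was 195 to 282 in control myoblasts, 345 to 543 in overexpressor myoblasts and 5777 to 7278 in knockout myoblasts, beside 8777 to 9595 in control myotubes, 14780 to 16000 in overexpressor myotubes and 18405 to 21306 in knockout myotubes. All 8 were called higher in knockout myoblasts, with a median log2 fold change of 5.46. Of 6 proliferation genes 3 were called lower there. The part of these differences in the members' change was not tested.

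**Figure D2:**
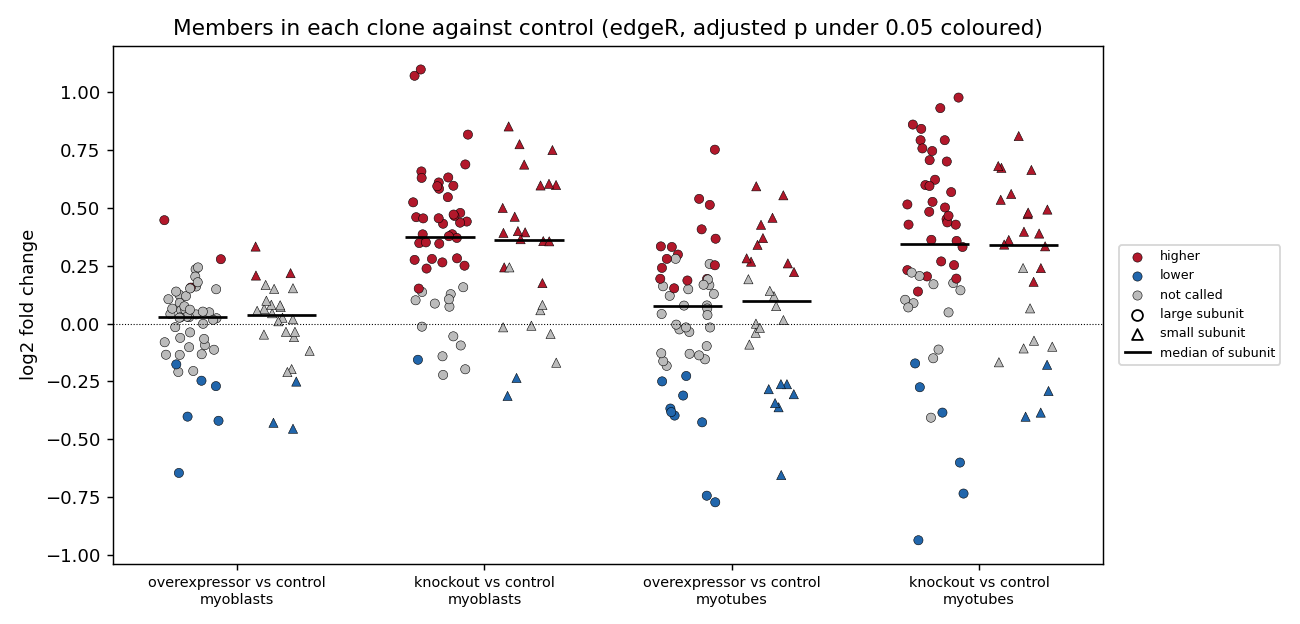
Log2 fold change of the large and small subunit members (all but Mrpl53, which has few counts) in each clone against control; circles are large and triangles small subunit members, red and blue those called higher and lower, and lines the median of each subunit. The points of the knockout clone lie mostly above 0 at both stages, and those of the overexpressor clone lie on both sides of 0.

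In overexpressor myoblasts 6 members were called higher and 9 lower than in control, against 20.7% and 19.7% of all genes, and the median member moved by 0.03, beside 0.02 for all genes. The members' shares were below those of all genes in both directions. The calls were 4 and 11 when library totals replaced TMM. Only 3 members were called higher without library C of the control or without library A of the overexpressor. Mrpl24, a large subunit protein related to bacterial L24 (chr3:87919506-87923672), rose from 50.3, 51.5 and 51.1 CPM to 70.3, 65.1 and 73.0 CPM, by 0.45 (SE 0.07, edgeR adjusted p = 2.87e-05), and shares 26.3% of its exon bases with Rrnad1 on the other strand. Mrpl52, a mitochondrion-specific protein of the large subunit (chr14:54426909-54429756), fell from 55.3, 53.7 and 50.1 CPM to 35.1, 30.4 and 36.2 CPM. Its log2 fold change was -0.65 (SE 0.08, edgeR adjusted p = 3.9e-06), and the libraries did not overlap.

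The direct comparison of the 2 clones as myoblasts had 6 members higher in the overexpressor and 52 lower, against 25.7% and 26.9% of all genes. The members' median was -0.36 and that of all genes -0.02. Mrps22 had 19.0, 21.5 and 18.9 CPM in the overexpressor and 37.9, 38.1 and 38.5 CPM in the knockout. Its log2 fold change was -0.95 (SE 0.09, edgeR adjusted p = 1.13e-07), and no libraries overlapped. Without library A of the overexpressor 2 members were called higher, and 3 without its library C or without library C of the knockout.

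In knockout myotubes against control myotubes 50 members were called higher and 10 lower, against 31% and 37% of all genes. The members' median was 0.35, beside -0.07 for all genes. The gap of 0.42, which scaling can hardly change, was the same under TMM, DESeq2 size factors and library totals. Of the 53 members called higher in knockout myoblasts, 40 were also called higher in knockout myotubes (75.5% of 53 and 80% of 50); these comparisons share no library but compare the same 2 lines. These 40 are 51.3% of the members, and 15.8% of all genes tested were called higher in both; of all genes called higher in knockout myoblasts, 60% were also called higher in knockout myotubes. Across 77 members their log2 fold changes had a Pearson r of 0.37, as a description. Muscle genes again moved in the same libraries: all 8 myotube genes were called higher in knockout than in control myotubes (median 1.11). Of the 6 proliferation genes, 4 were called higher there and 1 lower (median 0.61). The part of these differences in the members' change was not tested.

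Mrpl12 had 114, 129 and 118 CPM in control myotubes and 193, 213 and 251 CPM in knockout myotubes. The groups did not overlap, and the log2 fold change was 0.86 (SE 0.11, edgeR adjusted p = 1.17e-06). Mrpl11, which binds beside the stalk at the factor-binding site, rose from 33.3, 39 and 33.8 CPM to 62.8, 67.5 and 71.9 CPM, by 0.93 (SE 0.07, edgeR adjusted p = 4.27e-09). Mrpl54, a mitochondrion-specific large subunit protein (chr10:81264713-81266934), rose from 36.3, 40.7 and 32.8 CPM to 64.5, 73.7 and 77.9 CPM, by 0.98 (SE 0.09, edgeR adjusted p = 5.09e-08). All 3 genes were thus higher in each knockout library than in each control library.

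Some members fell in knockout myotubes. Mrpl13, related to bacterial L13 (chr15:55534094-55557748), had 136, 144 and 141 CPM in control myotubes and 69.6, 72.1 and 78.3 CPM in knockout myotubes. Its log2 fold change was -0.94 (SE 0.06, edgeR adjusted p = 1.12e-10). Mrpl32, the protein that the m-AAA protease of the inner membrane matures before it joins the ribosome, had 36.1, 41.3 and 48.7 CPM in control and 26.4, 25.3 and 24.0 CPM in the knockout, a change of -0.74 (SE 0.10, edgeR adjusted p = 5.7e-06). Neither pair of groups overlapped. Mrpl32 and Mrpl50, a mitochondrion-specific large subunit protein, were the only 2 members called higher in knockout myoblasts and lower in knockout myotubes, a pattern found in 3.91% of all genes tested.

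In overexpressor myotubes 27 members were called higher and 16 lower than in control, against 26.2% and 30.9% of all genes, with a median of 0.10 beside -0.04. This split moved with the scaling: 39 and 9 members with DESeq2 size factors and 45 and 9 with library totals. The members' median stayed 0.14 above that of all genes under all 3, a gap that scaling can hardly change. Without library C of the overexpressor myotubes the calls were 36 and 7. In the same comparison 6 of the 8 myotube genes were called higher (median 0.94), as were all 6 proliferation genes (median 0.94), and their part in the members' change was not tested. Mrpl13 was low here too, with 81.1, 79.0 and 86.4 CPM, a change of -0.77 (SE 0.06, edgeR adjusted p = 1.7e-09). Mrpl52 fell from 84.5, 94.1 and 92.5 CPM to 58.4, 52.3 and 51.1 CPM, by 0.74 on the log2 scale (SE 0.08, edgeR adjusted p = 2.99e-07). Mrpl18, related to the bacterial protein that binds 5S ribosomal RNA (chr17:12911349-12916345), had 33.7, 34.9 and 38.3 CPM in control myotubes, 58.5, 61.2 and 60.4 CPM in the overexpressor and 65.3, 65.3 and 61.0 CPM in the knockout. Both clones lay above all control libraries, by 0.75 and 0.84 on the log2 scale (edgeR adjusted p = 4.42e-09 and 8.38e-10). Both comparisons use the same control libraries.

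Between the 2 clones as myotubes 10 members were higher in the overexpressor and 43 lower, against 30.6% and 29.1% of all genes, with a median of -0.26 beside 0.02. Without library C of the overexpressor the counts were 8 and 37. Mrpl12 had 121, 105 and 98.9 CPM in the overexpressor, below the 3 knockout libraries, a change of -1.01 (SE 0.11, edgeR adjusted p = 3.54e-07). Mrpl50 had 41.5, 43.1 and 67.9 CPM in the overexpressor and 28.8, 25.8 and 23.4 CPM in the knockout, a change of 0.97 (SE 0.15, edgeR adjusted p = 2.91e-05), with library C the highest.

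**Figure D3:**
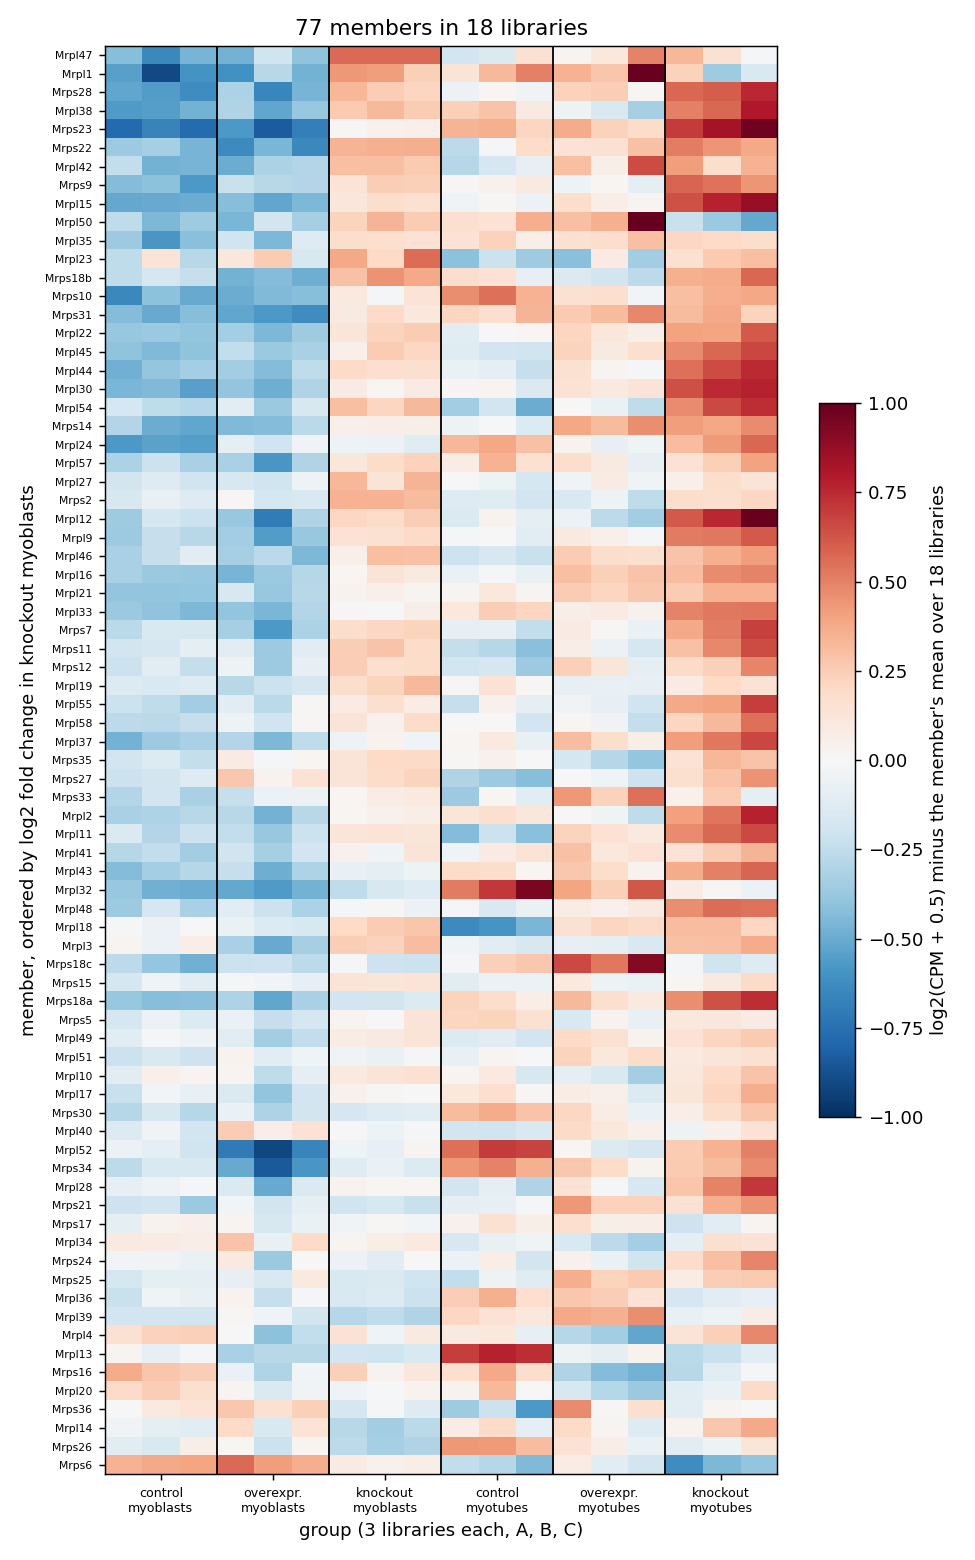
Heat map of log2(CPM + 0.5) of 77 members, each minus its own mean over the 18 libraries; rows are ordered by log2 fold change in knockout myoblasts against control, columns are libraries A, B and C of each group. Most rows turn from blue to red between control and knockout myoblasts and many are redder still in knockout myotubes, while Mrps6, the bottom row, runs the other way.

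Within each line, myotubes were then compared with myoblasts. In control 44 members were called higher in myotubes and 5 lower, against 33.9% and 28.8% of all genes, with a median of 0.23 beside 0.07. This direction depends on the scaling. With library totals 24 were called higher and 26 lower, and the members' median was -0.01 and that of all genes -0.17. The sign thus changed, while the gap of 0.16, which scaling can hardly change, stayed. Library totals moved the all-gene median by more than 0.1 in several comparisons that involve myotubes, and changes there are best read against it. Without library C of the overexpressor myotubes, which is in neither group but in the shared fit, 11 members were called lower.

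In the overexpressor clone 52 members were called higher in myotubes and 6 lower, against 29.8% and 33% of all genes, with a median of 0.30 beside -0.02. Without its myotube library C the counts were 54 and 3, and without its myoblast library A 3 were called lower. In the knockout clone 42 were called higher and 6 lower, against 29.8% and 35.6% of all genes, with a median of 0.24 beside -0.08; with library totals these were 26 and 11. Without the knockout's myoblast library A or myotube library C, 3 were called lower. In total 28 members (35.9%) were called higher in the myotubes of all 3 lines, against 14.6% of all genes tested, and 1, Mrps6 (1.28%), lower in all 3, against 14.7%. The control and overexpressor lines, which share no library, had 39 members called higher in common, 88.6% of the control's 44 and 75% of the overexpressor's 52; over all genes tested the shared calls were 60.4% and 68.7% of those higher in each line, and 20.5% of all genes. The knockout shared 30 with control (68.2% of 44 and 71.4% of 42), and over all genes 55.8% and 63.5%, or 18.9% of all genes. These shared counts are for TMM and were not taken with library totals. With library totals 24 members were called higher in control myotubes and 26 in knockout myotubes, so the 28, 39 and 30 would be smaller.

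Mrps23 rose in every line. Its myotube libraries had 98.6, 99.2 and 90.0 CPM in control, 100, 91.2 and 88.4 CPM in the overexpressor and 126, 138 and 153 CPM in the knockout. These are log2 changes from myoblasts of 1.05, 0.96 and 0.81 (SE 0.08 each, edgeR adjusted p = 1.64e-09, 4.8e-09 and 7.48e-08). Mrps6 had 27.4, 26.6 and 23.8 CPM in control myotubes, 34.3, 30.3 and 28.5 CPM in the overexpressor and 21.0, 23.7 and 24.6 CPM in the knockout. It fell in each line, by 0.71, 0.52 and 0.56 on the log2 scale (edgeR adjusted p = 6.37e-07, 2.04e-05 and 1.29e-05), and Slc5a3 and Gm49711 share 19.9% of its exon bases. Mrpl32 rose by 1.21 in control and 0.96 in the overexpressor (edgeR adjusted p = 1.08e-08 and 2.03e-07).

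The change from myoblast to myotube was compared between lines by an interaction term. Relative to control, it was larger in the overexpressor for 15 members and smaller for 8, against 16.6% and 22.3% of all genes. Relative to control, it was larger in the knockout for 15 and smaller for 16, against 20.2% and 29.9% of all genes. Both splits moved with the scaling: the overexpressor's was 22 and 4 with DESeq2 size factors and 34 and 4 with library totals, the knockout's 25 and 9, and 24 and 14. Without library C of the overexpressor myotubes they were 26 and 4, and 23 and 11. The knockout's higher count was 9 without library B of control myoblasts or library C of control myotubes, and 8 without library C of knockout myotubes.

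The 2 members with the largest drop in the knockout's response had already been high in its myoblasts. Mrpl1 had 20.7, 23.8 and 27.1 CPM in control myotubes, all above control myoblasts, and 22.3, 14.6 and 17.0 CPM in knockout myotubes, all below knockout myoblasts. The difference in log2 change was -1.48 (SE 0.27, edgeR adjusted p = 0.00024). Mrpl50 had 28.1, 24.5 and 26.2 CPM in control myoblasts and 37.7, 37.2 and 43.5 CPM in control myotubes, but 39.4, 42.6 and 40.1 CPM in knockout myoblasts. The difference in log2 change was -1.23 (SE 0.21, edgeR adjusted p = 0.000108). Mrpl1, Mrpl47 and Mrpl50 were the 3 members called higher in the myotubes of control and of the overexpressor and lower in those of the knockout, as were 1.32% of all genes tested. Mrpl32, with a difference of -1.01, and Mrpl13, with -0.78, also changed less in the knockout than in control (edgeR adjusted p = 1.83e-05 and 3.55e-07).

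Mrpl18 had the opposite pattern. It fell between control myoblasts (52.3, 50.6 and 53.0 CPM) and control myotubes, and rose in the overexpressor from 50.3, 47.9 and 47.0 CPM. The difference in log2 change was 0.85 in the overexpressor (SE 0.08, edgeR adjusted p = 2.21e-07) and 0.58 in the knockout (SE 0.08, edgeR adjusted p = 1.97e-05). Mrpl11 differed by 0.57 and 0.58 (edgeR adjusted p = 0.000241 and 0.00018). Mrpl24 rose in control from 50.3, 51.5 and 51.1 CPM to 94.6, 98.1 and 91.8 CPM and had 77.0, 70.8 and 72.7 CPM in overexpressor myotubes, a difference in log2 change of -0.81 (SE 0.09, edgeR adjusted p = 1.68e-06).

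**Figure D4:**
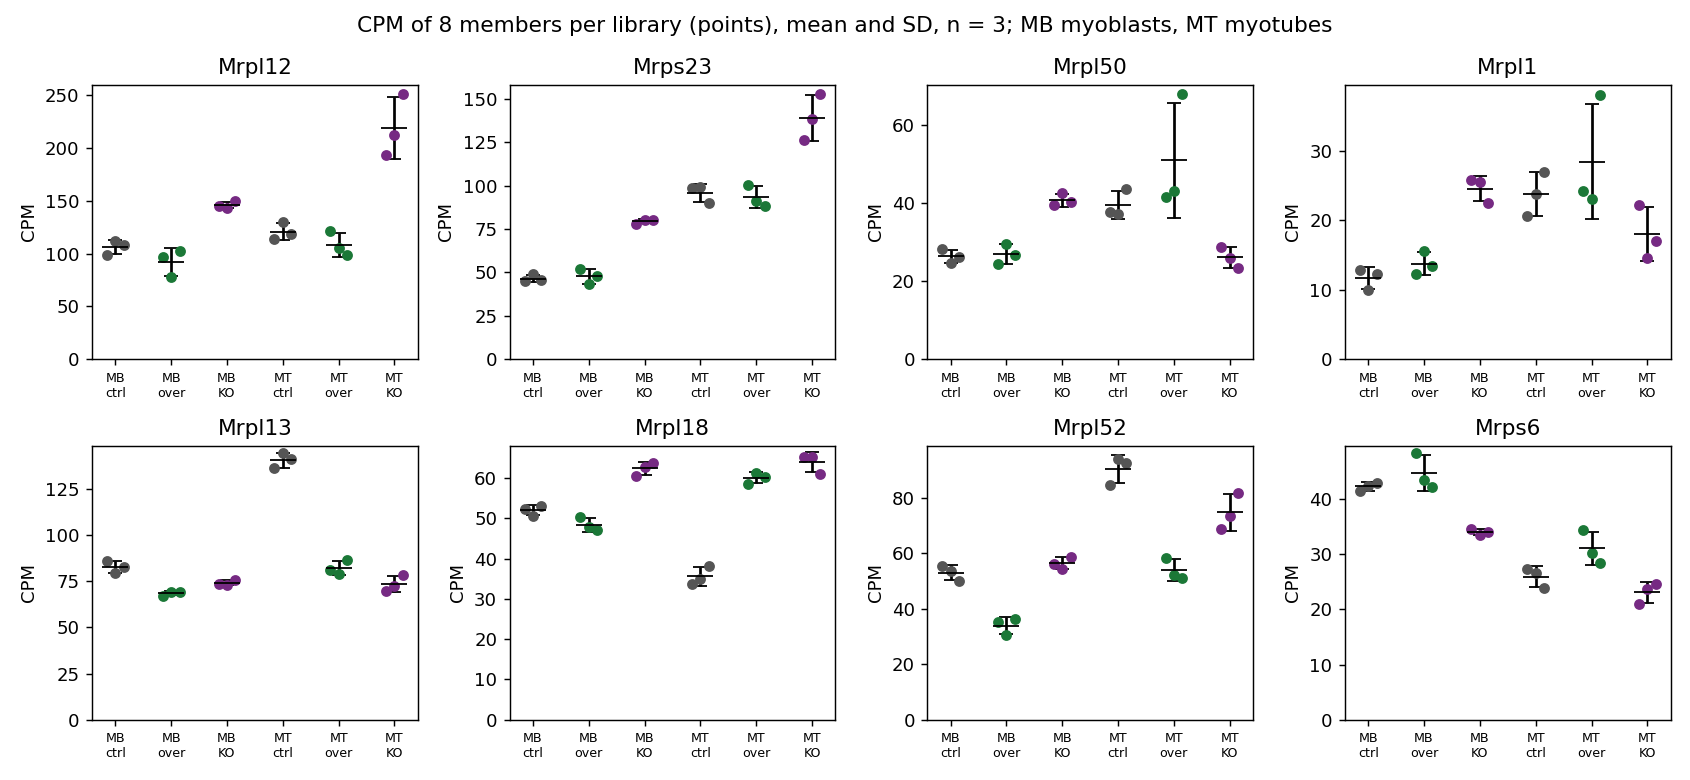
CPM of 8 members in each library (points) with group mean and SD (n = 3); MB are myoblasts, MT myotubes, ctrl control, over the overexpressor and KO the knockout clone. Mrpl12 and Mrps23 are highest in knockout myotubes, Mrpl13 and Mrpl52 in control myotubes, Mrpl1 and Mrpl50 have 1 overexpressor myotube library (C) well above the other 2, and Mrps6 is lower in myotubes in all 3 lines.

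Both subunits took part. In knockout myoblasts 36 of 51 large subunit members were called higher and 1 lower (median 0.37), and 17 of 26 small subunit members higher and 2 lower (median 0.36). In knockout myotubes the counts were 33 and 6 for the large subunit and 16 and 4 for the small. Of all genes tested, 26.4% were called higher and 26.6% lower in knockout myoblasts, and 31% and 37% in knockout myotubes. Of 48 members with a bacterial homologue, 33 were called higher and 2 lower in knockout myoblasts, and of 29 mitochondrion-specific members 20 and 1. In knockout myotubes these were 29 and 6, and 20 and 4. In overexpressor myotubes 11 of the 48 (22.9%) were called higher and 10 (20.8%) lower (median 0.03). Of the 29, 15 (51.7%) were higher and 6 (20.7%) lower (median 0.19). The all-gene shares were 26.2% and 30.9%, so both shares of the 48 lay below them. These class counts are for TMM with all libraries. They were not taken with other scalings or without library C of the overexpressor myotubes. Either change moved the calls of the members as a whole in this comparison. In overexpressor myoblasts the counts were 2 (4.17%) and 6 (12.5%) of the 48, and 4 (13.8%) and 3 (10.3%) of the 29. All lay below the all-gene shares of 20.7% and 19.7%. The difference between the 2 classes was not tested.

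The 3 paralogues of bacterial S18 are described in different comparisons, so their courses are not set side by side. Mrps18a and Mrps18b, but not Mrps18c, were called higher in the knockout clone than in control at both stages. Mrps18a, which sits in the large subunit, rose in myotubes of all 3 lines, with log2 changes of 0.57 for control, 0.58 for the overexpressor and 0.79 for the knockout; with library totals the control value was 0.32. Mrps18b of the small subunit had 21.0, 22.2 and 21.3 CPM in control myoblasts, 17.9, 18.5 and 17.8 CPM in the overexpressor and 30.8, 34.4 and 32.7 CPM in the knockout, with a log2 difference of -0.85 between the clones (SE 0.08, edgeR adjusted p = 6.59e-08). Mrps18c, the other small subunit copy, had 14.4, 17.2 and 17.6 CPM in control myotubes, 23.2, 21.1 and 27.8 CPM in the overexpressor and 14.3, 12.6 and 13.2 CPM in the knockout, a log2 difference of 0.85 between the clones (SE 0.11, edgeR adjusted p = 3.38e-06). These 2 differences between the clones come from different stages, so no contrast between the copies can be read from them. Gm16279 shares 30.5% of the exon bases of Mrps18b and Gm43511 23.2% of those of Mrps18c.

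Other members changed in 1 clone or in both. Mrps35, a small subunit protein with no bacterial counterpart, had 30.7, 31.4 and 30.5 CPM in control myotubes, 26.8, 24.9 and 23.2 CPM in the overexpressor and 33.7, 38.4 and 37.2 CPM in the knockout. The 3 lines did not overlap, and overexpressor minus knockout was -0.55 on the log2 scale (SE 0.07, edgeR adjusted p = 3.27e-06). Mrps27, a small subunit protein of the pentatricopeptide repeat family, had 37.6, 36.1 and 34.5 CPM in control myotubes and 52.1, 56.8 and 63.8 CPM in the knockout. All knockout libraries were higher, by 0.67 on the log2 scale (SE 0.08, edgeR adjusted p = 8.38e-07), and 24.2% of its exon bases lie opposite an exon of 6430562O15Rik. Mrps27 was also called higher than control in the overexpressor, both as myoblasts and as myotubes. Mrpl28, which has a bacterial counterpart in the large subunit, had 76.5, 81.3 and 70.3 CPM in control and 105, 123 and 143 CPM in knockout myotubes, without overlap. The log2 change was 0.70 (SE 0.11, edgeR adjusted p = 1.51e-05). Mrps21, which has a bacterial counterpart in the small subunit, had 44.4, 45.0 and 47.1 CPM in control myotubes, 64.4, 55.9 and 56.1 CPM in the overexpressor and 53.0, 61.5 and 65.3 CPM in the knockout. Both clones lay above all control libraries, by 0.37 and 0.40 on the log2 scale (edgeR adjusted p = 0.000731 and 0.000313).

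Mrpl58, Mrps12 and Mrps36 were also followed. Mrpl58, a peptidyl-tRNA hydrolase that releases chains from stalled ribosomes, had 37.2, 37.0 and 37.8 CPM in control and 48.7, 46.0 and 50.7 CPM in knockout myoblasts, a log2 change of 0.38 (SE 0.09, edgeR adjusted p = 0.00182). Mrps12, at the decoding centre, rose by 0.39 in knockout myoblasts and by 0.56 in knockout myotubes (edgeR adjusted p = 0.00405 and 0.00013). Mrps36 had 4.11, 4.58 and 3.46 CPM in control myotubes and 7.69, 5.45 and 6.07 CPM in overexpressor myotubes, a log2 change of 0.66 (SE 0.13, edgeR adjusted p = 0.000242). Mrps12 and Mrps36 were each called higher in the myotubes of both clones, against the same control libraries.

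The wider mitochondrial translation system was counted in the same fit. Of 5 mitoribosomal proteins with other names (Dap3, Ptcd3, Chchd1, Aurkaip1 and Gadd45gip1), 2 (40%) were called higher and 1 (20%) lower in knockout myoblasts. The all-gene shares there were 26.4% and 26.6%. In knockout myotubes 1 (20%) was higher and 2 (40%) lower, against 31% and 37% (list median -0.15). In overexpressor myoblasts 0 were higher and 2 (40%) lower, against 20.7% and 19.7%. In overexpressor myotubes 0 were higher and 3 (60%) lower, against 26.2% and 30.9%. For both 0 counts in edgeR, 0 had an unadjusted p under 0.05 in that direction and DESeq2 called 0. Gadd45gip1, which sits near the exit tunnel of the large subunit, was lower than control in both clones at both stages: its mean was 92.4 CPM (SD 7.24, n = 3) in control myoblasts, 36.3 CPM (SD 2.17, n = 3) in the overexpressor and 41.0 CPM (SD 0.987, n = 3) in the knockout. These are log2 changes of -1.35 and -1.17 (edgeR adjusted p = 3.6e-10 and 1.5e-09). Ptcd3, a messenger-binding protein of the small subunit, rose by 0.77 in knockout myoblasts (edgeR adjusted p = 7.05e-05).

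Of 26 assembly factors of the mitoribosome, 13 (50%) were called higher and 0 lower in knockout myoblasts, where 26.4% of all genes were higher and 26.6% lower (list median 0.23, all genes 0.02). For the 0 lower in edgeR, 0 had an unadjusted p under 0.05 in that direction and DESeq2 called 0. In knockout myotubes 13 (50%) were higher and 4 (15.4%) lower, against 31% and 37% of all genes (median 0.27 beside -0.07). In overexpressor myoblasts 2 (7.69%) were higher and 6 (23.1%) lower, against 20.7% and 19.7%, and in overexpressor myotubes 4 (15.4%) and 11 (42.3%), against 26.2% and 30.9%. Gtpbp10, a GTPase of large subunit assembly, had a mean of 4.29 CPM (SD 0.63, n = 3) in control myoblasts, 1.86 CPM (SD 0.427, n = 3) in the overexpressor and 9.20 CPM (SD 0.684, n = 3) in the knockout, so the clones lay on either side of control. Of 14 tested translation factors 6 (42.9%) were called higher and 2 (14.3%) lower in knockout myoblasts (median 0.32). Lrpprc, which stabilises mitochondrial messengers, rose there by 0.85 (SE 0.10, edgeR adjusted p = 1.11e-06). Of 17 mitochondrial aminoacyl-tRNA synthetases 7 (41.2%) were called higher and 3 (17.6%) lower in knockout myoblasts (median 0.06), and Mars2, which charges methionine, rose by 1.00 (edgeR adjusted p = 1.59e-06). In knockout myotubes 4 translation factors (28.6%) were higher and 4 lower (median -0.12), a share of higher calls close to the 31% of all genes, and 8 synthetases (47.1%) were higher and 3 (17.6%) lower (median 0.07).

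Proteins of the cytosolic ribosome moved with the members in the knockout clone and apart from them in the overexpressor. Of 83 tested, 45 (54.2%) were called higher and 3 lower in knockout myoblasts (median 0.30) and 46 (55.4%) and 8 in knockout myotubes (median 0.34), against the all-gene shares given above. In the overexpressor 0 were called higher and 28 (33.7%) lower as myoblasts (median -0.20), and 3 higher and 39 (47%) lower as myotubes (median -0.21). For the 0 higher in edgeR, 1 had an unadjusted p under 0.05 in that direction and DESeq2 called 0. Many of these genes have near-identical processed copies, so their counts are uncertain, and this difference between the lists was not tested.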

How the data were processed

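Raw counts per Ensembl gene were deposited by the authors for 18 libraries in 6 groups of 3. Per the submitters' processing notes, STAR 2.7.9a, featureCounts from Subread 2.0.3, FastQC 0.11.7, DESeq2 1.32.0 and the mm10 build were used; the strand setting and the annotation release are not given in the sources used here, so exon overlaps cannot be resolved by strand. Variance-stabilised values that the authors also deposited, on a log2-like scale, were not used. GENCODE vM21 names and exon lengths on GRCm38 matched 55190 of 55450 identifiers.

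All 18 libraries entered 1 fit in edgeR 4.0.16 (TMM, filterByExpr by group, robust quasi-likelihood test, 12 residual degrees of freedom), with Benjamini-Hochberg adjustment over 17912 genes in each of 11 comparisons; the code was tested on simulated data. CPM are counts divided by the TMM-scaled library size. Alternatives were DESeq2 1.42.0 size factors and its Wald test, library totals, no filter, a replicate block, only the groups compared, and leaving out each of the 18 libraries; counting only members with at most 20% exon overlap was added after seeing the data. The members and lists were chosen with earlier results of these data known. Members named were 10 fixed ones and the extremes of each comparison; list genes named were the extremes of each list.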

Additional observations from a re-analysis of the deposited data

Results flagged for a closer look

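The change from myoblast to myotube differed between a clone and control, by an interaction term in edgeR's quasi-likelihood fit with Benjamini-Hochberg adjustment over all genes, for 7 of the members whose values are given above. With TMM, 19.2% of members had a larger and 10.3% a smaller change in the overexpressor, against 16.6% and 22.3% of all genes. For the knockout these shares were 19.2% and 20.5%, against 20.2% and 29.9%. Such differences are thus not particular to the members. Against control the overexpressor's log2 change differed by 0.85 in Mrpl18, by 0.57 in Mrpl11 and by -0.81 in Mrpl24. The knockout's differed by -1.48 in Mrpl1, -1.23 in Mrpl50, -1.01 in Mrpl32 and -0.78 in Mrpl13, and by 0.58 in both Mrpl11 and Mrpl18. The direction and the side of the threshold held for each of these under every alternative. Both sets of differences use the same control libraries.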

How the results depend on the processing

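The 53 fold changes and response differences of named members kept their sign and their side of the threshold in all 1272 alternative results. Counts of members called moved more, and are given as higher and lower. Scaling by DESeq2 size factors gave 9 lower in overexpressor and 6 in knockout myotubes against control, 3 lower in myotubes against myoblasts in each clone, 4 lower in the overexpressor's response, and 25 and 9 in the knockout's; the DESeq2 Wald test gave 10, 6, 3, 4, 25 and 9 for the same counts. Library totals gave 5 lower in knockout myoblasts, 45 and 9 in overexpressor myotubes against control, 24 and 26 in control myotubes against myoblasts, 26 and 11 in the knockout's, 34 and 4 in the overexpressor's response and 24 higher in the knockout's. Without the filter on low counts 3 members were higher in overexpressor myoblasts against control, 2 against the knockout, and 5 were lower in the overexpressor's response. With only the groups compared in the fit the counts were 3 higher in overexpressor and 7 lower in knockout myoblasts against control, 9 lower in overexpressor myotubes, 11 lower in control and 3 in overexpressor myotubes against myoblasts, and 25 higher in the knockout's response. Among members with little exon overlap 3 were lower in control myotubes against myoblasts.

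Replicate letters do not pair the libraries: correlations of same-lettered deviations ran from -0.358 to 0.264 over 45 pairs, and 10 correlated best with their own letter. A replicate block gave 5 and 7 in overexpressor and 51 and 3 in knockout myoblasts, 5 and 52 between them, 21 and 16, 48 and 10, and 10 and 42 for the same in myotubes, 43 and 4, 49 and 5, and 40 and 5 in myotubes against myoblasts of control, overexpressor and knockout, and 13 and 7, and 15 and 16 for the 2 responses.

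Leaving out 1 library at a time gave ranges, in the same order, of 3 to 8 and 6 to 10, 47 to 54 and 1 to 4, 2 to 6 and 43 to 54, 21 to 36 and 7 to 17, 46 to 58 and 7 to 10, 8 to 11 and 37 to 46, 39 to 46 and 4 to 11, 45 to 54 and 3 to 7, 37 to 44 and 3 to 6, 10 to 26 and 4 to 10, and 8 to 23 and 11 to 19. The cause of these shifts was not tested. The depth limits Mrpl53, with 0 to 17 counts a library.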
